A study of Mus musculus with 12 samples.

Results

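RNA was precipitated with an antibody against Thoc5 from vascular smooth muscle cells (VSMC) at passage 10 and is set against the input of the same passage. The table deposited for this comparison lists 13233 genes with the reads of both libraries, and all of them were used. The series holds 12 samples in all, of which 2 are compared here, with 1 library each. The cells were primary VSMC from the aorta of C57BL/6 mice aged 6 weeks, grown in medium with serum. The Thoc5 precipitate was made with an antibody from Bethyl and the Magna RIP kit, the input had no antibody, and libraries came from a TruSeq RNA kit. Cells of the other RNA immunoprecipitation (RIP) samples came from passage 3 or passage 10 and served only for comparison here. So did cells of passages 4 to 8 in which Thoc5 was silenced (shThoc5) and their control (shNT). Both of these groups were taken on day 4 after infection. No precipitate with a control antibody is among the samples analysed here.

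Thoc5 is a subunit of the THO complex, which binds nascent transcripts in the nucleus. Together with the RNA helicase Ddx39b and the adaptor Alyref, THO forms TREX, the assembly that hands processed mRNA to the export receptor Nxf1 at the nuclear pore. In RIP a protein is captured with beads and an antibody, and the RNA that comes with it is sequenced beside the RNA of the lysate. VSMC in the wall of the aorta are contractile, and in culture they proliferate and lose part of their contractile programme.

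The Thoc5 library held 9364965 reads over the listed genes and the input 19037316. Levels are reads per 1000000 reads of a library (CPM), so a ratio compares a transcript's share of both libraries and does not count bound molecules. The log2 ratio was taken after 0.5 CPM was added to both values, and folds are ratios of CPM with nothing added, with exact 95% intervals that cover counting error only. A gene counts as enriched where its log2 ratio reached 1 and the precipitate held 10 reads and 1 CPM or more. It counts as depleted where the ratio was −1 or lower and the input met the same minimum. With 1 library of each kind the differences have no replicate check, and no p-value is given for them. All 10 smooth muscle markers were listed, with a summed level of 6562 CPM in the Thoc5 precipitate and 8813 CPM in the input. Of the other cell types checked, 6 of 8 endothelial markers summed to 97.3 CPM in the precipitate and 78.5 CPM in the input, and in the same order 4 of 6 macrophage markers to 49.8 and 54.6 CPM and 6 of 6 adventitial fibroblast markers to 159 and 168 CPM. Chondrocyte markers (4 of 4) summed to 224 and 168 CPM, heart muscle (5 of 8) to 34.7 and 47.3 CPM, adipocyte (2 of 4) to 15.1 and 32.8 CPM and epithelium (2 of 4) to 7.69 and 8.98 CPM, and no lymphocyte marker was listed. In bulk libraries fewer cells of a type and less RNA per cell cannot be told apart.

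The Thoc5 precipitate was richer in very long transcripts and poorer in short ones. Among the 15 highest ratios were the giant nuclear envelope genes Syne2 and Syne1, the histone methyltransferase Kmt2d, the cytoskeletal linker Dst, the lipid transfer gene Vps13c and the DNA demethylase Tet2. Among the 15 lowest were ribosomal protein genes, genes of small mitochondrial proteins and the mitochondrially encoded CYTB. In all, 749 genes were enriched, which is 5.66% of those listed, and 581 were depleted, which is 4.39%. With the median of ratios as the scale in place of library totals, 596 genes were enriched and 717 depleted. The log2 ratios were centred near 0, with a median of 0.02, a 5th percentile of −1.02 and a 95th percentile of 1.04. Enriched genes had a median fold of 2.54 and held 8.64% of the precipitate's reads, against 3.60% of the input's. Depleted genes had a median fold of 0.384 and held 3.02% of the precipitate's reads, against 7.73% of the input's. The exact interval left out 1 for every gene called in either direction. It comes from the same reads as the calls, so it is no separate support for them. The interval lay wholly above 2 for 356 enriched genes.

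**Figure D1:**
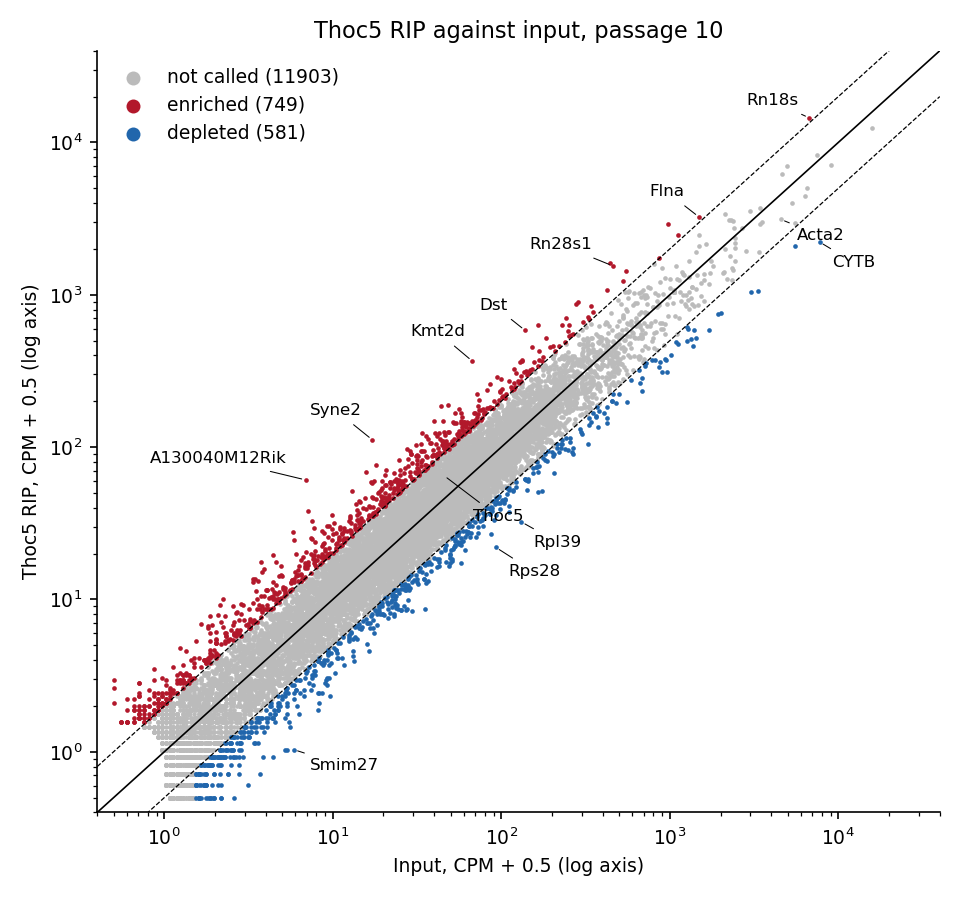
Levels of the 13233 listed genes in the Thoc5 precipitate (vertical) and the input (horizontal) at passage 10, in CPM with 0.5 added, on log axes, with 1 point a gene. The solid line marks equal levels and the dashed lines 2-fold. The 749 enriched genes lie above the band and the 581 depleted ones below it. Enriched genes are 9.67% of the 2647 genes lowest in the input and 3.02% of the 2647 highest.

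Several genes stood out by the number of reads behind them. Syne2, which links the nuclear envelope to the actin cytoskeleton, had 1041 reads (111 CPM) in the Thoc5 precipitate and 317 reads (16.7 CPM) in the input. Its level was 6.68-fold higher in the precipitate (95% interval 5.88 to 7.59). Kmt2d, which methylates histone H3 at enhancers, had 3429 reads (366 CPM) in the precipitate and 1273 reads (66.9 CPM) in the input, a fold of 5.48 (5.13 to 5.84). Syne1, the relative of Syne2, stood at 185 CPM in the precipitate and 43.3 CPM in the input, and Kmt2a, another methyltransferase of the same family, at 189 and 47.7 CPM. Both were about as far above the input, with folds of 4.28 (3.94 to 4.65) and 3.95 (3.65 to 4.29). Huwe1, a ubiquitin ligase, had 5956 reads in the precipitate and 3117 in the input, a fold of 3.88 (3.72 to 4.06). Sh3pxd2a, a scaffold of podosomes, had 15208 reads in the precipitate and 8367 in the input, a fold of 3.69 (3.60 to 3.80). Trio, an exchange factor for small GTPases, and the kinesin Kif26b had folds of 3.75 and 3.73. The highest ratio of genes with at least 100 reads belonged to A130040M12Rik, a gene known by its clone name, with 566 reads (60.4 CPM) in the precipitate and 122 reads (6.41 CPM) in the input, a fold of 9.43 (7.74 to 11.6). The span of Huwe1 contains the microRNA genes Mir98 and Mirlet7f-2 and that of Dst overlaps Bend6. No source used here says whether reads were counted by strand, so reads of genes with overlapping spans are uncertain.

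Dst, which links actin, intermediate filaments and microtubules, had 5458 reads in the precipitate and 2628 in the input, a fold of 4.22 (4.03 to 4.42). The other genes among the 15 highest had 82 to 712 reads in the precipitate. Alpk1, a kinase of innate immunity, had 161 reads in the precipitate and 62 in the input, a fold of 5.28 (3.92 to 7.20), and Polq, a DNA polymerase of break repair, had 90 and 33 reads, a fold of 5.54 (3.68 to 8.53). Vps13c had 257 reads in the precipitate and 101 in the input, a fold of 5.17 (4.09 to 6.58), and Tet2 had 179 and 74 reads, a fold of 4.92 (3.73 to 6.54). Fgd3, Helz2, Shroom4, Cdc42bpg and Kif13b had folds from 4.32 to 5.38. These intervals overlap one another, so counting error alone does not order the genes from Alpk1 to Kif13b. At the low end Smim27, which encodes a small membrane protein, had 5 reads in the precipitate and 102 in the input, a fold of 0.0996 (0.0317 to 0.240), and its span overlaps Topors, so its reads are uncertain. Bola3, which takes part in making iron-sulphur clusters in mitochondria, had 76 reads (8.12 CPM) in the precipitate and 659 reads (34.6 CPM) in the input, a fold of 0.234 (0.182 to 0.298). Tma16, Mycbp, Amn1, Mrpl23 and Cst6 had between 12 and 18 reads in the precipitate and between 111 and 156 in the input.

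**Figure D2:**
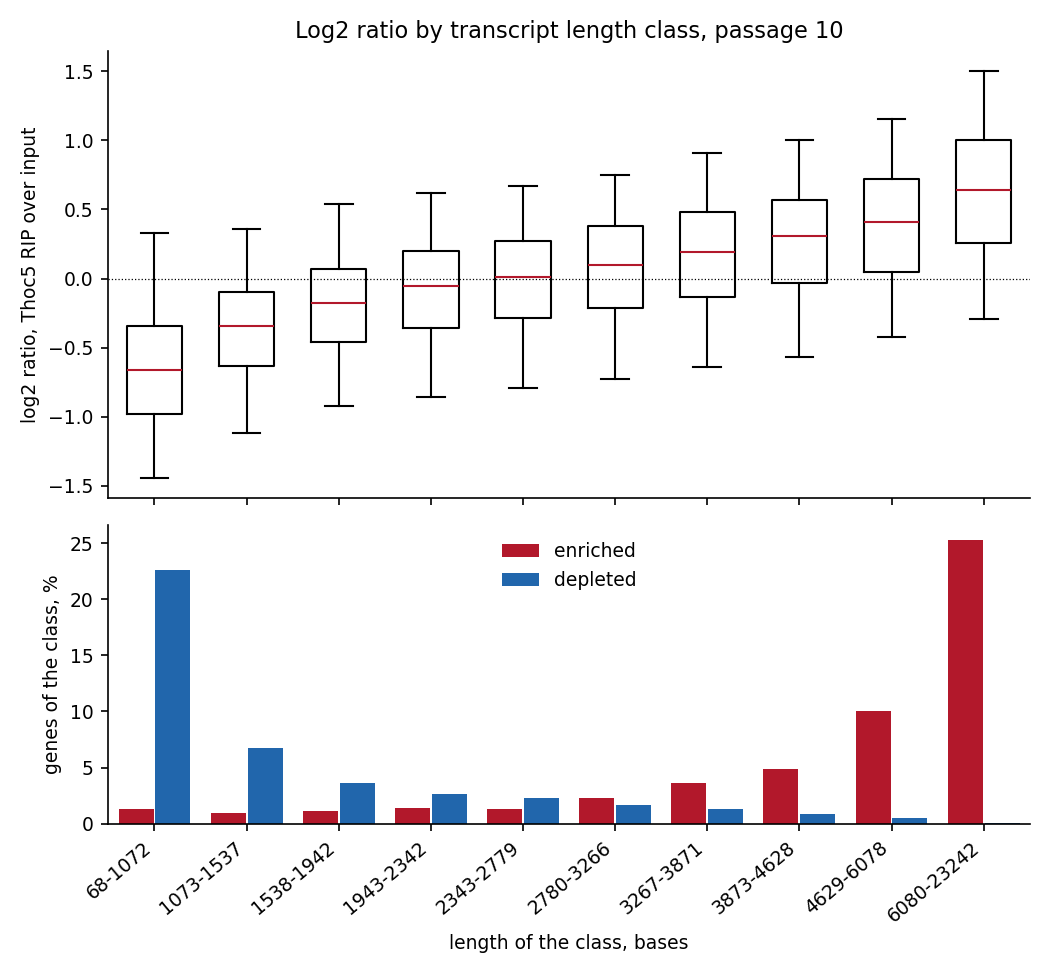
Log2 ratio of Thoc5 precipitate over input by class of deposited gene length, 10 classes of about equal size, passage 10. In the upper panel boxes span the quartiles, the red line is the median and whiskers reach the 5th and 95th percentiles. In the lower panel bars give the percentage of genes enriched or depleted in each class. The median runs from −0.66 in the shortest class to 0.64 in the longest, and enriched genes are 25.3% of the longest class.

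The ratio varied with the length of the gene, and its median hardly with the input level. That median was 0.01 for the 2647 genes lowest in the input and −0.06 for the 2647 highest. The share enriched did fall with level, from 9.67% of the lowest to 3.02% of the highest. A length was deposited for 11790 of the listed genes (89.1%), for 613 of the enriched and for 500 of the depleted ones. The median length was 5994 bases for enriched genes (quartiles 4101 and 8163), 990 bases for depleted genes (603 and 1809) and 2779 bases for all. Over the 11790 genes the Spearman correlation of length with the log2 ratio was 0.58, and that of the input level with the log2 ratio over all genes was −0.04. Genes of 1 library share its depth and its handling, so these are descriptions. In the shortest class, of 68 to 1072 bases, the median log2 ratio was −0.66, 22.6% of genes were depleted and 1.27% enriched. In the class of 2343 to 2779 bases the median was 0.01. In the longest class, of 6080 to 23242 bases, it was 0.64, 25.3% were enriched and 0.0848% depleted. The trend went on within that class, with medians of 0.53 for genes of 6000 to 8000 bases, 0.85 for 10000 to 12000 bases and 1.07 for 12000 to 15000 bases. The 31 genes of at least 15000 bases had a median of 1.46, and 21 of them were enriched. The highest of them was Syne2 and the lowest Strbp, which encodes an RNA-binding protein first known from spermatids, at 0.11.

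**Figure D3:**
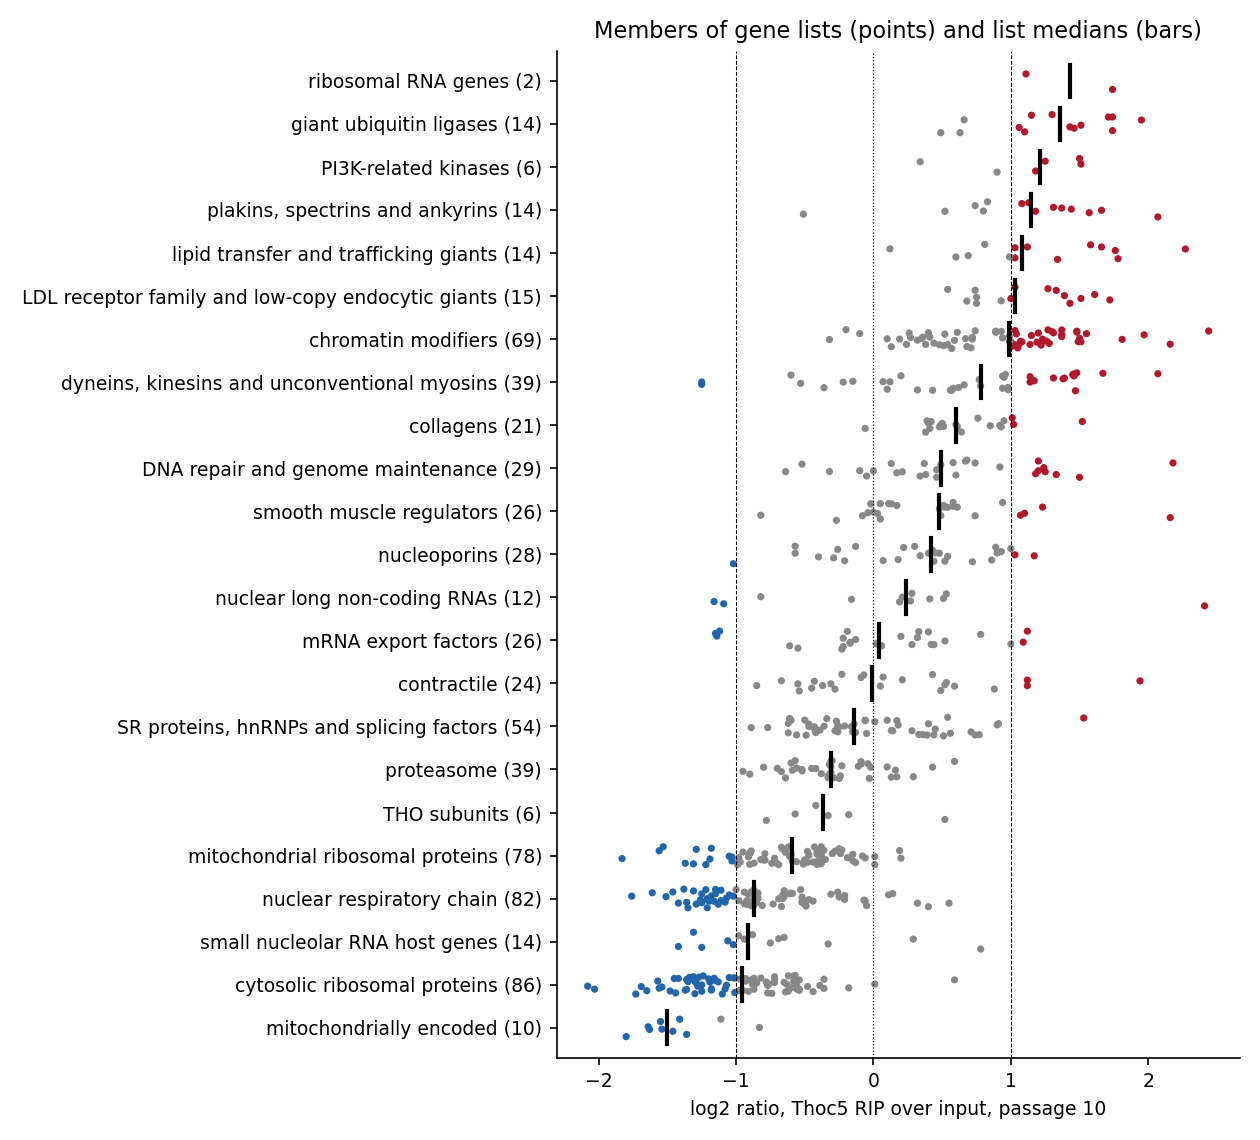
Log2 ratio of Thoc5 precipitate over input at passage 10 for the members of 23 gene lists, with the number listed in brackets. Points are genes, red where enriched and blue where depleted, black bars are list medians and dashed lines mark 2-fold. Lists of giant proteins and chromatin modifiers lie on the right and ribosomal, respiratory chain and mitochondrially encoded genes on the left.

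Genes of chromatin modifiers gave the largest number of enriched transcripts of the lists described here, though not the largest share. Of 69 listed, 34 were enriched (49.3%), beside 78.6% of the giant ubiquitin ligases and 5.66% of all genes. With 0 depleted, their median log2 ratio was 0.99, beside 0.02 over all genes. The 68 with a deposited length had a median of 7218 bases. Their ratios lay a median of 0.36 above the median of genes of like length, and 52 of 68 lay above it. The longest class used for this spans 9431 to 23242 bases with a median of 0.92, within which ratios still climbed with length. Among methyltransferases of histone H3, Kmt2b had 874 reads in the precipitate and 632 in the input (log2 ratio 1.48) and Nsd1, which acts on another residue, had 1368 and 975 reads, a fold of 2.85 (2.63 to 3.10). The demethylases of DNA followed, with Tet3 at 1.81 and Tet1, at 45 and 26 reads, at 1.51 beside Tet2 at 2.16. Dnmt3a, which methylates DNA anew, stood at 81.6 CPM in the precipitate and 31.2 CPM in the input, a fold of 2.61 (2.35 to 2.92). The acetyltransferase genes Crebbp and Ep300 had log2 ratios of 1.27 and 1.22, and the remodelling genes Srcap, Ep400 and Chd8 had 1.30, 1.28 and 1.19. At the other end were the deacetylase Hdac2, with 1190 reads in the precipitate and 3017 in the input (−0.32), and Ezh2, the methyltransferase of Polycomb, at −0.20. Hdac2 and Ezh2 are shorter, at 2004 and 2667 bases. Against genes of like length they stood at −0.19 and −0.20.

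Genes that encode giant enzymes and scaffolds were enriched in most of their lists. Of 14 giant ubiquitin ligases 11 were enriched, with a median of 1.36 at a median length of 14926 bases, where all genes of 12000 to 15000 bases had a median of 1.07 and those of 15000 bases or more 1.46. Herc2 had 967 reads in the precipitate and 580 in the input, a fold of 3.39 (3.05 to 3.76), and Rnf213, an interferon-induced ligase, had 1397 and 846, a fold of 3.36 (3.08 to 3.66). Trip12 was the lowest, with 1511 reads in the precipitate and 2188 in the input and a log2 ratio of 0.49. Of 6 kinases of the PI3K-related family 4 were enriched. Trrap, a scaffold of acetyltransferase complexes, had a fold of 2.87 and Smg1, the kinase of nonsense-mediated decay, of 2.85. Mtor and Atm, which sense nutrients and DNA breaks, had 1.88 and 1.28. Of 14 plakins, spectrins and ankyrins 9 were enriched, with Plec, which anchors intermediate filaments, at 8374 reads in the precipitate and 5397 in the input (1.66). Dystrophin (Dmd) was the exception in that list, with 40 and 120 reads and a log2 ratio of −0.51 at 13852 bases. Of 14 giant genes of lipid transfer and trafficking 9 were enriched, led by Vps13c. Lyst, which shapes lysosomes, had 559 and 325 reads (1.78). Of 15 large endocytic and cadherin-like receptors 9 were enriched, with Fat4 at 1.61 and Celsr2 at 1.72. Lrp1, which clears lipoproteins and proteases, was just past the threshold at 16253 and 16474 reads (1.00). Median deposited lengths were 12220 bases for the PI3K-related kinases, 13852 for plakins, spectrins and ankyrins, 10983 for the lipid transfer list and 9168 for the receptors. Of all genes, 26.6% of those of 8000 to 10000 bases were enriched, 39.3% of 10000 to 12000 bases and 54.9% of 12000 to 15000 bases.

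Subunits of the dynein motor lay on both sides of the input. Of 39 dyneins, kinesins and unconventional myosins 13 were enriched and 2 depleted, with a median of 0.78. The heavy chain of cytoplasmic dynein, Dync1h1, had 5961 reads in the precipitate and 4349 in the input (1.48), and the unconventional myosin Myo10 had 8205 and 5252 (1.67). The light chains of the same motor lay on the other side. Dynll1 had 1304 reads in the precipitate and 6302 in the input (−1.25), and Dynlrb1 had 1008 and 4870 (−1.25). Against genes of like length the median of the motor list was 0.25. Of 29 genes of DNA repair 8 were enriched and 0 depleted, beside 5.66% enriched over all genes, with a median of 0.49 that was 0.13 against genes of like length. They were Polq, Blm, Fancd2, Fanca, Ercc6, Palb2, Slx4 and Atr. Nbn, which senses DNA breaks, was below the input at −0.64.

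Cytosolic ribosomal protein genes gave the largest number of depleted transcripts of the lists described here, though not the largest share. Of 86 listed, 41 were depleted (47.7%), beside 80.0% of the mitochondrially encoded genes and 4.39% of all genes. With 0 enriched, their median log2 ratio was −0.96. Together they held 29254 CPM in the precipitate and 54758 CPM in the input. Rps28 had 201 reads (21.5 CPM) in the precipitate and 1755 reads (92.2 CPM) in the input, a fold of 0.233 (0.200 to 0.270), and Rpl39, whose span holds Snora69, had 298 reads (31.8 CPM) and 2495 reads (131 CPM), a fold of 0.243 (0.215 to 0.274). Rpl41, which encodes a very short protein, stood at 515 CPM in the precipitate and 1335 CPM in the input. Rpl7l1, a relative of Rpl7, had 1146 and 2646 reads, and its log2 ratio of −0.18 was the highest of those with at least 50 reads, followed by Rpl3 and Rpl8, both at −0.36. The 84 with a length had a median of 706 bases, and their ratios lay a median of 0.34 below genes of like length, with 13 of 84 above. Many ribosomal protein genes have processed copies in the genome, and no source used here says how reads that match several copies were counted, so single values are uncertain.

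Ribosomal protein mRNAs are known for a run of pyrimidines at their first bases, which ties their translation to growth signals. The windows of 30 bases that follow run from 10 bases before to 20 bases after the start listed in RefSeq on GRCm38.p6, on the strand of the gene, and capitals mark a run of at least 8 C or T. They are shown for the lowest ribosomal protein genes with 1 listed start and for Syne2 and Kmt2d at the other end.
Rps28 (chr17:33824543-33824572, minus strand): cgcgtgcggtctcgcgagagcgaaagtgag
Rpl39 (chrX:37085203-37085232, minus strand): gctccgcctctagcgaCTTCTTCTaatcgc
Rpl22l1 (chr3:28805498-28805527, plus strand): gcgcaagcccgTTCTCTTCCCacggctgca
Rps12 (chr10:23787190-23787219, minus strand): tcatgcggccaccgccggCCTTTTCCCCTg
Syne2 (chr12:75818308-75818337, plus strand): tgtagcctccagtccagagcggagcgcgct
Kmt2d (chr15:98871186-98871215, minus strand): ggatttttgCTTTTTTTTTTTTTTTTTTTT
Runs were counted at any place in the window, not only at the first bases of the mRNA. A run was present in 22 of 53 ribosomal protein genes with 1 listed start (41.5%) and in 911 of all 8077 such genes (11.3%). It was present in 40 of 328 depleted genes (12.2%) and in 57 of 443 enriched genes (12.9%). Among the ribosomal protein genes the median log2 ratio was −0.87 with a run and −0.91 without, and among all genes it was 0.02 with and 0.02 without. Rps28, the lowest of the list, has no such run in this window, and the run of Kmt2d is a single C followed by T.

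Transcripts of nuclear genes of the respiratory chain and of mitochondrially encoded genes were also low in the Thoc5 precipitate. Of 82 nuclear genes 30 were depleted and 0 enriched, with a median of −0.87. Atp5e, a small subunit of ATP synthase, had 477 reads in the precipitate and 3311 in the input, a fold of 0.293 (0.265 to 0.322), and Cox7b of cytochrome oxidase had 625 and 3911, a fold of 0.325 (0.298 to 0.354). Only 5 of the 82 lay above 0, and the highest were both subunits of complex I. Ndufs1 had 530 reads in the precipitate and 731 in the input (0.55) and Ndufv1 had 1234 and 1899 (0.40). Against genes of like length the list lay a median of 0.15 lower. The 10 mitochondrially encoded genes listed had a median of −1.50, and 8 were depleted. They held 8377 CPM in the precipitate and 25099 CPM in the input. CYTB had 20813 reads (2222 CPM) in the precipitate and 147268 reads (7736 CPM) in the input, a fold of 0.287 (0.283 to 0.291), and COX1 had 19444 and 104991 reads, a fold of 0.376 (0.371 to 0.382). ND6 was the highest, at −0.83, and overlaps ND5 on the other strand, so both are uncertain. Against all genes of like length the mitochondrially encoded genes lay a median of 1.16 lower. Their transcripts never pass through the nucleus, and whether this bears on their ratios was not tested. Of 78 mitochondrial ribosomal protein genes, which are nuclear, 12 were depleted and the median was −0.59, 0.12 below genes of like length.

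Small nucleolar RNA host genes, spliced transcripts whose introns hold small nucleolar RNAs, were low as well. Of 14 listed 5 were depleted and 0 enriched, with a median of −0.91 that was −0.18 against genes of like length. Gas5 had 1134 reads (121 CPM) in the precipitate and 5740 reads (302 CPM) in the input, a fold of 0.402 (0.376 to 0.428), and Snhg1 had 201 and 984 reads, a fold of 0.415 (0.355 to 0.484). The span of Gas5 overlaps other genes, so its reads are uncertain. All 6 small nucleolar RNAs listed lay between −1.49 and −0.97, with 325 reads in the precipitate among them. Snord123, with a deposited length of 6161 bases, held 308 of these reads, Snord104 held 13, Snora65 held 3 and Snord22 held 1. Apart from Snord123 these ratios thus rest on few reads. Of 12 nuclear long non-coding RNAs 1 was enriched (8.33%) and 2 were depleted (16.7%). Firre, which is transcribed from the X chromosome and shapes nuclear architecture, had 350 reads (37.4 CPM) in the precipitate and 126 reads (6.62 CPM) in the input, a fold of 5.65 (4.59 to 6.98). Malat1, a nuclear speckle RNA, had 1166 reads (125 CPM) and 4183 reads (220 CPM), a fold of 0.567 (0.531 to 0.605), and Neat1, the scaffold of paraspeckles, had 1908 and 3218 reads, a fold of 1.21 (1.14 to 1.28). Pvt1 and Dleu2 were depleted at −1.16 and −1.09, with spans that overlap other genes. Over all 355 genes typed as long non-coding RNA in RefSeq, 10 were enriched (2.82%, beside 5.66% of all genes) and 33 depleted (9.30%, beside 4.39%), and their median against genes of like length was 0.00.

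The gene with the most reads in the precipitate was that of 18S ribosomal RNA. Rn18s had 135724 reads (14493 CPM) in the precipitate and 127995 reads (6723 CPM) in the input, a fold of 2.16 (2.14 to 2.17), and the 28S gene Rn28s1 had 14455 and 8777 reads, a fold of 3.35 (3.26 to 3.44). Lars2, a mitochondrial leucyl-tRNA synthetase, had a fold of 3.02 (2.88 to 3.17) beside 3.35 for Rn28s1. With Thoc2 at passage 10 Lars2 and Rn28s1 had log2 ratios of 0.26 and 0.24. With Thoc5 at passage 3 these were 4.06 and 3.98, and with Thoc2 at passage 3 they were 5.61 and 5.44. No source used here says how reads that match several places were counted, so the fold of Lars2 is uncertain. Other abundant transcripts of the precipitate lay close to the input. The proteoglycan Bgn had 12429 CPM in the precipitate and 15812 CPM in the input, fibronectin (Fn1) 6966 and 4981 CPM, the collagen gene Col1a1 6167 and 4656 CPM and beta-actin (Actb) 4478 and 6352 CPM.

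Contractile genes of smooth muscle were centred near the input, with a median of −0.01 beside 0.02 over all genes. Of 24 listed 3 were enriched (12.5%, beside 5.66% of all genes) and 0 depleted (beside 4.39%). Ppp1r12b, a targeting subunit of myosin phosphatase, had 161 reads (17.2 CPM) in the precipitate and 78 reads (4.10 CPM) in the input, a fold of 4.20 (3.18 to 5.57). Flna, the actin crosslinker filamin A, had 30373 and 28353 reads, a fold of 2.18 (2.14 to 2.21), and Tln1, which couples integrins to actin, had a log2 ratio of 1.12. The 10 marker genes of smooth muscle lay between −0.67 and 0.59. Acta2, smooth muscle actin, had 29280 reads in the precipitate and 86616 in the input, a fold of 0.687 (0.678 to 0.696), and Myl9, a regulatory light chain of myosin, had 4628 and 15006, a fold of 0.627 (0.606 to 0.648). Myh11, the smooth muscle myosin heavy chain, had 42 and 58 reads, a fold of 1.47 whose interval of 0.965 to 2.23 includes 1. Of 26 regulators of smooth muscle 4 were enriched (15.4%) and 0 depleted, with a median of 0.48 that was 0.00 against genes of like length. The 4 were Tet2, the receptor gene Notch2, Smad3, which transmits TGF-beta signals, and Mrtfb, a cofactor of Srf. Klf4, a transcription factor of phenotypic switching, stood at −0.04 and Hey2, a target of Notch, at −0.82 with 27 and 104 reads. Of 21 collagens, the main fibres of the vessel wall matrix, 3 were enriched (14.3%). Among them were Col27a1 at 174 and 117 reads (1.52) and Col6a3 at 1286 and 1283 (1.02). The ratio was above 0 for 20 of the 21, and their median was 0.08 above genes of like length.

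The mRNAs of THO itself were not enriched. Thoc5 mRNA had 607 reads (64.8 CPM) in the Thoc5 precipitate and 857 reads (45.0 CPM) in the input, a fold of 1.44 (1.30 to 1.60). The other 5 subunits lay below the input. Thoc2 had a fold of 0.881 (0.791 to 0.979), Thoc6 of 0.793 (0.671 to 0.936), Thoc3 of 0.743 (0.650 to 0.848), Thoc1 of 0.667 (0.549 to 0.807) and Thoc7 of 0.581 (0.525 to 0.642), and the intervals of neighbours in that order overlap. Thoc1, Thoc6 and Thoc7 share part of their spans with other genes, and their reads are uncertain. Of 26 mRNA export factors 2 were enriched (7.69%, beside 5.66% of all genes) and 3 depleted (11.5%, beside 4.39%). The enriched ones were Mcm3ap, the scaffold of the TREX-2 complex, with 842 reads in the precipitate and 783 in the input, and Zfc3h1, which retains transcripts for decay, with 485 and 457. The depleted ones were Sarnp, which binds Ddx39b, and Eny2 and Sem1, which are small subunits of TREX-2, with log2 ratios from −1.15 to −1.12. The partners of THO in TREX, Ddx39b and Alyref, stood at 0.20 and −0.23 and the receptor Nxf1 at 0.32. Of 28 nucleoporins 2 were enriched (7.14%), Nup153 and Nup205, and 1 was depleted (3.57%), Nup35, which is near the shares of all genes. Of 54 genes of SR proteins, hnRNPs and splicing factors only Srrm2, a scaffold of nuclear speckles, was enriched (1.85%). It had 6566 reads in the precipitate and 4612 in the input (1.53). The spans of Mcm3ap, Eny2 and Srrm2 overlap Ybey, Nudcd1 and Elob, so their reads are uncertain.

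Some genes departed from the trend with length. Of genes with at least 300 reads over both libraries, Fgd3, an exchange factor for Cdc42, had 636 reads in the precipitate and 289 in the input at 3110 bases, and its log2 ratio of 2.13 was 1.97 above the median for its length. Foxo3, a transcription factor of stress responses, had 252 and 159 reads and lay 1.60 above at 2889 bases. Ratios far below the length median belonged to Orc4 of the replication origin complex, with 66 and 398 reads (−1.50) at 4978 bases, Rps15a, with 1568 and 7788 reads (−1.29) at 5136 bases, and cytochrome c (Cycs), with 88 and 523 reads (−1.50) at 3059 bases. These genes lay 1.90, 1.70 and 1.61 below. Deposited lengths are per gene, and the length of the transcripts made in these cells was not measured.

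The chemokine and NF-kB list held both enriched and depleted genes, and its median against genes of like length was 0.04. Of 21 genes 4 were depleted, beside 4.39% of all genes. They were the chemokines Cxcl5, Cxcl10 and Ccl5 and the cytokine Il6, with log2 ratios from −1.26 to −1.03. Cxcl5 had 19 reads in the precipitate and 106 in the input and Cxcl10 had 9 and 53, so these 2 ratios rest on few reads. The span of Cxcl10 overlaps Art3, so its reads are uncertain. The median length of the list was 2540 bases, and 2.28% of genes of 2343 to 2779 bases were depleted. Cxcl10, at 1063 bases, falls in the shortest length class, of which 22.6% were depleted. Cxcl5, at 1655 bases, falls in a class with 3.65% depleted. Against genes of like length Cxcl5 and Cxcl10 stood at −1.06 and −0.64. The enriched member was Tnfaip3, a brake on NF-kB signalling, with 419 reads in the precipitate and 396 in the input (1.09). Of 27 interferon-stimulated genes 3 were enriched (11.1%, beside 5.66% of all genes), Helz2, Rnf213 and Parp14. Isg15, a short ubiquitin-like protein, was the 1 depleted (3.70%), at 139 and 605 reads (−1.07).

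Across the other precipitates the trend with length kept its direction. With Thoc2 at passage 10, which shares its input with the Thoc5 precipitate, the class medians ran from −0.83 in the shortest to 1.01 in the longest class. With Thoc5 at passage 3, which has its own input, they ran from −0.83 to 0.91, and with Thoc2 at passage 3 from −1.41 to 1.28. Those of Thoc5 at passage 10 spanned the narrowest range of the 4. The genes enriched with Thoc5 at passage 10 had a median log2 ratio of 1.60 with Thoc2 at passage 10, 1.61 with Thoc5 at passage 3 and 1.88 with Thoc2 at passage 3. The depleted genes had medians of −1.20, −1.28 and −1.68 in the same order. Over 12801 genes listed at both passages the Spearman correlation of the Thoc5 ratios was 0.61, as a description across genes that share 2 libraries at each passage.

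**Figure D4:**
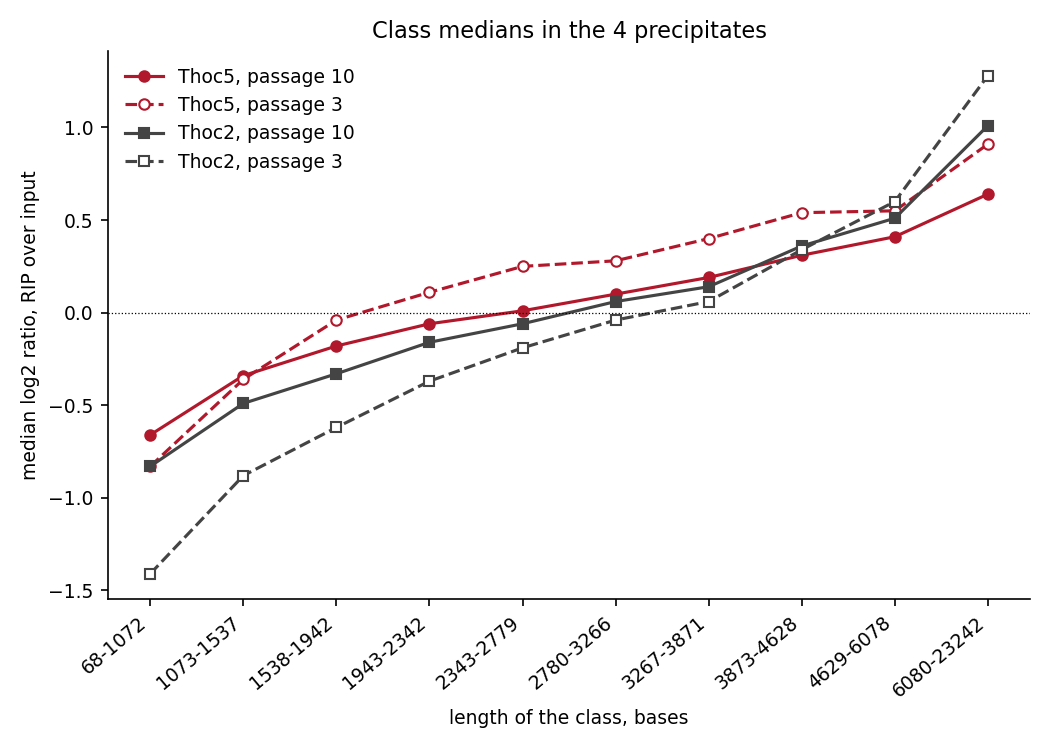
Median log2 ratio of precipitate over input in the 10 classes of deposited gene length, for Thoc5 (circles) and Thoc2 (squares) at passage 10 (filled) and passage 3 (open). Each line is 1 library against its input. All 4 climb from the shortest to the longest class, from −0.66 to 0.64 for Thoc5 at passage 10 and from −1.41 to 1.28 for Thoc2 at passage 3.

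By the same rule 11.5% of genes were enriched and 6.88% depleted with Thoc2 at passage 10, and 16.1% and 19.5% with Thoc2 at passage 3. With that rule 3069 genes were enriched with Thoc5 at passage 3, 20.8% of the 14723 listed there, and 1691 (11.5%) were depleted. Of the 749 genes enriched at passage 10, 531 were also enriched at passage 3, which is 70.9% of the passage 10 genes and 17.3% of the passage 3 genes. Of the 581 depleted, 335 were also depleted at passage 3, which is 57.7% and 19.8%. Syne2 had a log2 ratio of 2.70 at passage 10 and 3.27 at passage 3, Kmt2d of 2.44 and 2.78, Rps28 of −2.08 and −3.03 and CYTB of −1.80 and −2.83. Malat1 lay on opposite sides, at −0.82 at passage 10 and 4.84 at passage 3, while Meg3 stood at 0.41 and 4.57 and Neat1 at 0.27 and 2.23. The passage 3 precipitate held 5975866 reads. Of the 12801 genes listed at both passages 33 were called in opposite directions, 10 of them enriched at passage 10. Among these, Clmn, an actin-binding membrane protein, had 263 reads in the precipitate and 253 in the input at passage 10, and 0 and 39 at passage 3. Iqgap3, a scaffold protein known from proliferating cells, had 200 and 171 reads at passage 10 and 0 and 51 at passage 3. Depleted at passage 10 and enriched at passage 3 were 23 genes, among them the small nucleolar RNA Snora65, with 3 and 30 reads at passage 10 and 120 and 103 at passage 3. Only 1 library stands for each passage, so differences between preparations and between passages cannot be told apart.

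**Figure D5:**
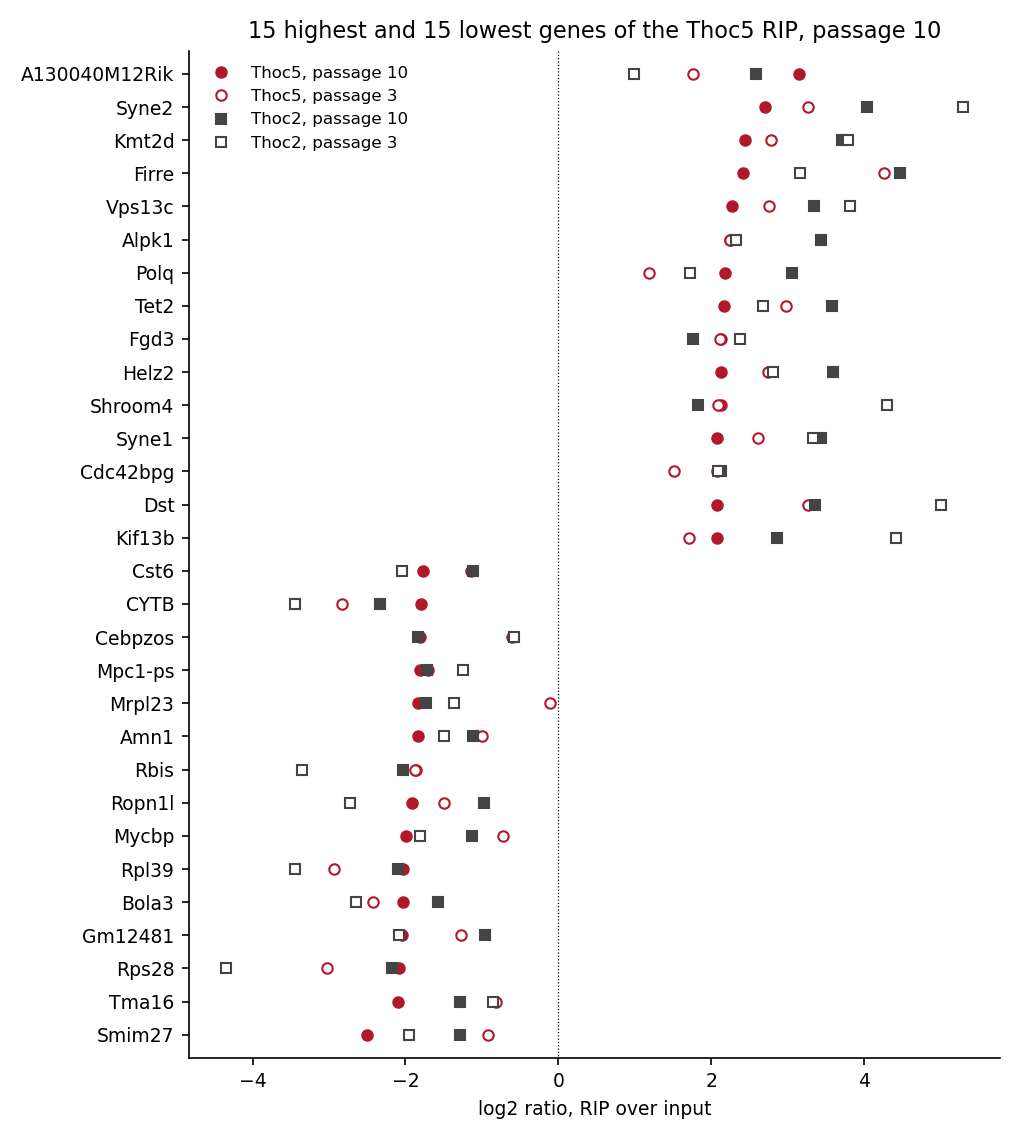
Log2 ratio of precipitate over input for the 15 highest and 15 lowest genes of the Thoc5 precipitate at passage 10 (filled circles), with Thoc5 at passage 3 (open circles) and Thoc2 at passage 10 and passage 3 (filled and open squares). The 15 highest lie above 0 and the 15 lowest below 0 in each of the 4 precipitates. Values of Thoc2 at passage 3 spread widest, from 5.29 for Syne2 to −4.35 for Rps28.

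The transcripts enriched with Thoc5 were also followed in cells with Thoc5 silenced, for which no label tells whether a group's libraries are separate cultures. Their p-values then reflect the spread between libraries, which may be technical. Thoc5 itself had 7.37 and 5.75 CPM in shThoc5 cells and 33.5 and 38.9 CPM in shNT cells (log2 fold change −2.51, adjusted p = 0.499 by edgeR), and the groups did not overlap. With 2 libraries against 2, edgeR's quasi-likelihood test called 0 of 13569 genes at an adjusted p under 0.05, with 651 (4.80%) at an unadjusted p under 0.05, and DESeq2 called 48 (0.455% of 10559 with an adjusted p), Thoc5 among them (adjusted p = 6.67e-15 by DESeq2). Of the 749 enriched genes 699 were tested, and their median log2 fold change, shThoc5 over shNT, was 0.04, beside 0.01 over all genes. By edgeR 0 of them were called and 20 had an unadjusted p under 0.05 (2.86%), and 77 were lower in both shThoc5 libraries than in both shNT libraries, beside 12.4% of all genes. Another 169 (24.2%) were higher in both, beside 21.4%. Of the 531 depleted genes tested the median was −0.02. DESeq2 called 1 enriched gene, Ptprj, a receptor tyrosine phosphatase, with 17.5 and 18.7 CPM in shThoc5 cells and 31.4 and 42.6 CPM in shNT cells (log2 fold change −1.09, adjusted p = 0.0244 by DESeq2). It also called 1 depleted gene, Aspn, a small matrix proteoglycan, with 26.3 and 18.3 CPM in shThoc5 cells and 48.8 and 55.0 CPM in shNT cells (−1.27, adjusted p = 0.00256 by DESeq2). In the precipitate Ptprj had 205 reads and in the input 201, and Aspn had 0 and 27, at least 4.43-fold lower with 3 reads taken for 0.

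In the authors' deposited table of selected genes for this precipitate 560 were listed, each with a score of at least 0.303. Of these, 493 were enriched by the rule used here, which is 88.0% of that list and 65.8% of the enriched genes. The 67 others had log2 ratios from 0.75 to 0.99. The ratio in the authors' deposited table was not scaled to the depth of the libraries, and its median over all genes was 0.504.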

How the data were processed

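Gene counts of the Thoc5 precipitate and the input were deposited per gene, with no normalization, for genes with at least 11 reads over both libraries. The deposited signal is the count times 1.97, the same factor for both libraries, and the deposited ratio is taken from that signal. The authors' deposited score is the weight of the second of 2 classes, which with that of the first sums to 1, and the length per gene is that in the authors' RNA-seq table. The mm9 build, featureCounts, Subread, bcl2fastq, HOMER 4.8.3, MACS2 2.1.1 and limma are named per the submitters' processing notes, and which of them made which file is not stated there.

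CPM used each table's column totals. The rules for log2 ratios and calls are given with the results. Exact intervals are Clopper-Pearson intervals given the summed reads. Identifiers were matched to RefSeq (GRCm38.p6, 12855 of 13233) for names, types and overlaps only. Members and the 61 gene lists, 9 of them cell type markers, were chosen with earlier results of these data known. Genes named are the 15 highest and 15 lowest ratios with at least 100 reads, the 10 highest with at least 1000 reads, the 10 most abundant, up to 2 highest and 2 lowest of each list, the 3 nearest to either threshold and the THO subunits. Other members named were chosen after their values were seen. Distance from like length is to the median of 50 length classes. Silencing was tested with edgeR 4.0.16 (TMM, filterByExpr, Benjamini-Hochberg) and DESeq2 1.42.0, in R 4.3.3. Exact permutation of 2 against 2 libraries cannot give a two-sided p below 0.333. Alternatives were other amounts added, scalings, thresholds, read minimums, a model with the replicate number and the omission of each library.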

Additional observations from a re-analysis of the deposited data

Results flagged for a closer look

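Of the 266 genes named by rule, 9 had Thoc5 ratios on opposite sides of 1 at passage 10 and passage 3. Their exact 95% intervals of the fold leave out 1 at both passages. How many of all genes do so was not counted, so these 9 are not set against a background. With 1 library of each kind at each passage the differences between passages were not tested. Among the mRNAs of THO, Thoc2 had 500 reads in the Thoc5 precipitate and 1154 in the input at passage 10 (log2 ratio −0.18, fold interval 0.791 to 0.979), and 461 and 1164 reads at passage 3 (1.25, 2.16 to 2.68). Thoc1 had 144 and 439 reads at passage 10 (−0.57, 0.549 to 0.807), and 558 and 1703 at passage 3 (0.99, 1.81 to 2.19). Thoc6 had 201 and 515 reads at passage 10 (−0.33, 0.671 to 0.936), and 138 and 446 at passage 3 (0.89, 1.54 to 2.28). All 3 were thus below the input at passage 10 and above it at passage 3.

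Pvt1, a long non-coding RNA, had 94 and 439 reads at passage 10 (−1.16, 0.345 to 0.545), and 171 and 862 at passage 3 (0.27, 1.02 to 1.42). Hey2, a target of Notch, had 27 and 104 reads at passage 10 (−0.82, 0.332 to 0.812), and 19 and 55 at passage 3 (0.87, 1.18 to 3.60). Tnnt2, the troponin T of heart muscle, had 303 and 828 reads at passage 10 (−0.42, 0.650 to 0.850), and 79 and 225 at passage 3 (1.04, 1.63 to 2.77). The ribosomal protein gene Rpl3 differed little from the input at either passage, with log2 ratios of −0.36 (0.755 to 0.805) and 0.11 (1.02 to 1.15). Above the input at passage 10 were Trp53inp1, a target of p53, with 122 and 165 reads (0.56, 1.18 to 1.91) against −0.19 at passage 3 (0.779 to 0.984), and the zinc finger gene Zfp607a. Zfp607a had 52 and 26 reads at passage 10 (1.70, 2.49 to 6.78), and 0 and 45 at passage 3 (−1.80, 0 to 0.519). Malat1, Clmn, Iqgap3 and Snora65, chosen after their values were seen, also lay on opposite sides.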

How the results depend on the processing

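Counts of enriched and depleted genes were 470 and 302 with 2 CPM added, 2213 and 1838 at a threshold of 1.5-fold, 105 and 71 at 3-fold, and 356 and 229 where the exact interval had to lie past 2-fold. They stayed within 1.5 times with 0.1 CPM added, other totals, scalings or read minimums. With the median of ratios list medians were −0.09 for contractile, 0.35 for filamin, −0.03 for glycolysis, −0.25 for lysosome, −0.25 for translation factor, −0.37 for smooth muscle marker, −1.04 for ribosomal protein and −1.58 for mitochondrially encoded genes. Ribosomal RNA had 1.35 with it and 1.39 with TMM. With 2 CPM added the large receptors had 0.82, with 0.1 CPM the mitochondrially encoded genes −1.55, and with at least 100 reads chondrocyte markers 0.32. The scalings moved the median of all genes by −0.067 at most, to −0.04, so lists with medians near 0 have no direction.

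Differences from like length, an alternative added after the trend was seen, are given for the lists they moved. The longest class, 9431 to 23242 bases, has 1 median, so lists of giant genes are not matched there: giant ubiquitin ligases (0.53), plakins (0.52), PI3K-related kinases (0.43), lipid transfer (0.43) and large receptors (0.29). Differences were 0.36 for chromatin, 0.27 for nuclear envelope, 0.26 for calcium handling, 0.25 for motors, 0.17 for filamins, 0.13 for DNA repair, 0.10 for nucleoporins, 0.08 for collagens and for chondrocyte markers, 0.04 for chemokines, 0.03 for integrins and 0.00 for smooth muscle regulators. Below 0 were proteasome (−0.02), cholesterol (−0.04), Mediator (−0.06), contractile (−0.08), translation factors (−0.09), matrix glycoproteins (−0.11), lysosome (−0.12), mitochondrial ribosomal proteins (−0.12), metalloproteinases (−0.14), respiratory chain (−0.15), small nucleolar RNA hosts (−0.18), nuclear long non-coding RNAs (−0.30), ribosomal proteins (−0.34) and mitochondrially encoded genes (−1.16). Ribosomal RNA (1.67), microRNA genes (1.12) and the 1 small structured RNA listed (1.78) lay above 0. Their median deposited lengths were 1540, 88.0 and 332 bases. Without the length matching their medians were 1.43, 0.13 and 0.82. The class medians moved little under 70 alternative values, among them the added one without ribosomal protein and respiratory chain genes, but that of 2343 to 2779 bases was −0.07 with the median of ratios and −0.03 with TMM, in place of 0.01. The added change to 0.1 or 2 CPM kept all 12 medians in other precipitates. Of 1330 alternative values for named genes 65 moved and 0 reversed.

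For silencing, DESeq2 called 48 genes, edgeR with no filter on low counts 1, and leaving out each library in turn 0 to 47, the 47 without shThoc5 replicate 1. The median of the enriched genes was between 0.01 and 0.04 then, lowest without shThoc5 replicate 2. Where a group keeps 1 library it is assumed to vary like the other group. With the replicate number as a block 511 were called, 19 of them enriched and 12 depleted genes. The labels do not pair these libraries, and with 2 pairs the correlation of same-numbered deviations, 0.68, does not settle it.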
